A study of Rattus norvegicus with 115 samples.

Results

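The transcripts described here are 8 genes of B cells and plasma cells in leukocytes sorted from rat mammary tumours. They were chosen by symbol, as Ms4a1, Cd79b, Cd22, Spib, Pax5, Cd38, Sdc1 and Xbp1, out of the 17455 genes of the count table, and Jchain, the 9th symbol of the set, was not analysed here. Values are RNA-seq counts scaled to the total of a table column, as CPM. A column was taken as a leukocyte column where Ptprc, the gene of the pan-leukocyte protein CD45, reached 300 CPM. That held for 44 columns, which came from 31 rats. The lowest leukocyte column had 486 CPM of Ptprc, and the highest of the 63 other columns had 165 CPM.

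The tumours had been induced in virgin Sprague Dawley rats by NMU, an alkylating agent injected into the abdomen at 50 mg/kg between 35 and 53 days of age, so all groups share it. Rats with palpable tumours then received a combination of an anti-PD-L1 antibody and the TGFBR1 inhibitor LY2157299 (8 leukocyte columns of 6 rats), the TGFBR1 inhibitor alone (7 columns of 5 rats), the anti-PD-L1 antibody alone (8 columns of 5 rats) or vehicle (12 columns of 8 rats). A separate cohort with tumours received no treatment (9 columns of 7 rats). PD-L1 is a ligand that restrains T cells through the receptor PD-1, and TGFBR1 is a receptor kinase of the cytokine TGF-beta. The sources used here do not state dose or duration of treatment.

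B cells recognise antigen through a membrane immunoglobulin that signals through CD79 chains, and they present it to T cells. Pax5 holds B cell identity. On activation some B cells become plasma cells, which switch off Pax5 and Ms4a1, switch on Prdm1 and Xbp1 and secrete antibody. The plasma cell proteins of the set are also found elsewhere. CD38 occurs on T cells, natural killer cells and macrophages, syndecan-1 (Sdc1) on epithelium, and XBP1 in secretory cells of many tissues, the mammary epithelium among them.

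Column totals ran from 6609198 to 29727437 counts in the leukocyte columns, and 3 counts, taken as the floor of detection, equalled 0.101 to 0.454 CPM. Each of the 35 treated or vehicle tumours for which the labels list a CD45 sample had exactly 1 leukocyte column. Of the 10 untreated tumours with such a label, 9 had 1 leukocyte column. The columns of the remaining tumour, C5T1, stayed under the cut and are among the other columns. The T cell gene Cd3e had a median of 843 CPM in leukocyte columns and 2.18 CPM in the other columns, and the epithelial gene Epcam had medians of 24.7 CPM and 1869 CPM. The highest Cd3e level in the other columns was 1099.9 CPM, within the range of the leukocyte columns. The vehicle tumours P5T3 and P6T2 stood apart, with 1354 and 1048 CPM of the macrophage gene Cd68 and the lowest Cd3e levels, 21.7 and 25.8 CPM. The leukocyte columns of untreated tumours were all in batch 1 of the deposited sample table and those of the other groups in batches 2 and 3. Cohort and batch thus cannot be told apart for the untreated leukocyte columns. In the comparisons of treatments the rat was the replicate: its leukocyte columns were summed. Their p-values measure the spread between these rats.

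The 5 B cell genes and Cd38 had their higher median in the leukocyte columns, and the plasma cell genes Sdc1 and Xbp1 in the other columns. Ms4a1, which encodes CD20, had a median of 3.82 CPM in leukocyte columns (range 0 to 418) and of 0 CPM in the other columns, where it was at 0 in 33 of 63. Cd79b, a signalling chain of the B cell receptor, had medians of 10.8 CPM (0 to 978) in leukocyte and 0.565 CPM in other columns. Cd22, an inhibitory lectin of B cells, had medians of 39.5 CPM in leukocyte and 1.10 CPM in other columns. Its lowest leukocyte column had 12.9 CPM, whereas Ms4a1 was at 0 in 3 of the 44 leukocyte columns and Cd79b in 1. The untreated tumour C10T4 had 59.7 CPM of Cd22 beside 0 counts of Ms4a1 and Cd79b. The Cd22 level is therefore given as that of the gene, and the part that came from B cells was not tested. In each of these genes the upper part of the leukocyte columns lay above every other column: 19 of 44 columns for Ms4a1, 14 for Cd79b and 22 for Cd22.

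The transcription factors followed the same direction in their medians. Spib, an ETS factor of B cells and plasmacytoid dendritic cells, had medians of 11.6 CPM in leukocyte columns and 0.413 CPM in the others, but single other columns reached 97.4 CPM, and only 3 leukocyte columns exceeded that. Pax5 had medians of 0.274 CPM in leukocyte and 0 CPM in other columns, so most of its values rest on few counts. Cd38, an enzyme that consumes NAD at the cell surface, had a median of 56.5 CPM (11.4 to 299.9) in leukocyte columns against 2.82 CPM in other columns. Sdc1 and Xbp1 ran the other way. Sdc1 had a median of 73.9 CPM in leukocyte columns and 654 CPM in the others, and 37 of the 44 leukocyte columns were below the lowest other column. Xbp1 had medians of 225 CPM in leukocyte and 807 CPM in other columns, and 32 leukocyte columns were below every other column.

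**Figure D1:**
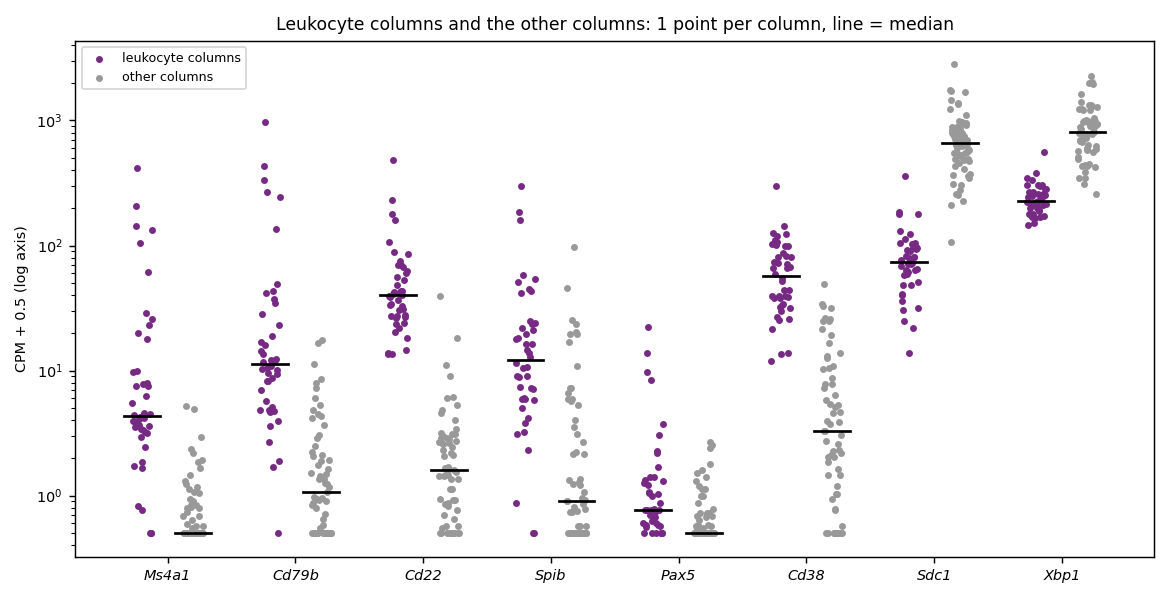
Level of each gene (CPM + 0.5, log axis) in the 44 leukocyte columns (purple) and the 63 other columns (grey), 1 point per column, with the median as a line. Ms4a1 to Cd38 have the higher median in leukocyte columns, whereas Sdc1 (73.9 against 654 CPM) and Xbp1 (225 against 807 CPM) have the higher median in the other columns.

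Of the genes more restricted to plasma cells, Derl3 and Tnfrsf17 were near 0 in the leukocytes and Mzb1 was not in all of them. Derl3, an endoplasmic reticulum gene, was at 0 in 30 of 44 leukocyte columns and at most 0.36 CPM, and Tnfrsf17, the BCMA receptor, was at most 2.54 CPM. Mzb1, a chaperone of antibody secretion in plasma and marginal zone B cells, reached 32.8 CPM. The values of Sdc1 and Xbp1 are given as levels of those genes and not of a cell type. In such bulk samples, fewer cells of a type and less RNA per cell cannot be told apart.

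Promoter sequences, from 250 bases before to 50 after the start of the gene, were matched for 5 of the 8 genes in the RefSeq table of build GRCr8, while the submitters' processing notes name build rn6 for the counts. Those of 4 genes are shown because Cd22 and Spib belong to the genes that were high together in the same tumours, and Sdc1 and Xbp1 to those that were not. Capitals mark GAGGAA, the core bound by PU.1 and SPIB type ETS factors, in Cd22 and the GC box GGGCGG in the other 3 genes, on either strand. The Cd22 promoter lies at chr1:95259681-95259980 on the minus strand, that of Spib at chr1:104161246-104161545 on the minus strand, that of Sdc1 at chr6:37281791-37282090 on the plus strand and that of Xbp1 at chr14:84604373-84604672 on the plus strand. Each is written 5′ to 3′.
Cd22: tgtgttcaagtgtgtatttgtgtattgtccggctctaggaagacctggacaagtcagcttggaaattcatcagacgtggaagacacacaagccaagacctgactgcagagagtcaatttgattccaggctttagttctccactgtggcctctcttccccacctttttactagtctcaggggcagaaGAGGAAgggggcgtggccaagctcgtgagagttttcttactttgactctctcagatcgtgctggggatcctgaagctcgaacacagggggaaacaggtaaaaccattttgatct
Spib: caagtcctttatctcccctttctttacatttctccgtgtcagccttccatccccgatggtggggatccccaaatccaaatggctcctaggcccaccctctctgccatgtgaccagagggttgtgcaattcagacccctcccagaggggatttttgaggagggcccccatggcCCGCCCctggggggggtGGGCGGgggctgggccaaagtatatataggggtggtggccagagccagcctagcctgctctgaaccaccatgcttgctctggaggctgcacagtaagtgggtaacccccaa
Sdc1: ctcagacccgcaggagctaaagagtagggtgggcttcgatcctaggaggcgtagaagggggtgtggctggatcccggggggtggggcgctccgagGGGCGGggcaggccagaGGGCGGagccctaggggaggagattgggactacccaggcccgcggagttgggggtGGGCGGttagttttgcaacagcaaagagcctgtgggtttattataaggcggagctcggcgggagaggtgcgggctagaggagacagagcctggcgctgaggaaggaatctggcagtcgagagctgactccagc
Xbp1: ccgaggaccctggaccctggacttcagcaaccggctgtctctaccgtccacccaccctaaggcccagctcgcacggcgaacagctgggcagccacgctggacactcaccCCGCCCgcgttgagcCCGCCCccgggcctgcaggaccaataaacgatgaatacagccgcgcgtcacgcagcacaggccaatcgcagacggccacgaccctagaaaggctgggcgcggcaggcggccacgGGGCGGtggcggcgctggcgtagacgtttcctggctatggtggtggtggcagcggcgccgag

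In these windows GAGGAA occurred once in Cd22 and once in Sdc1, and 27.6% of all 33469 promoters of the table held it. GGGCGG occurred 2 times in Spib, 3 times in Sdc1 and 3 times in Xbp1 and not in the Cd22 window, against 33.06% of all promoters. The octamer ATGCAAAT (1.78% of all promoters) and the EBF1 motif, TCCC and GGGA with 2 bases between them (0.83%), matched none of the 4 windows, and the E-box CAGCTG (15.06%) matched that of Xbp1. All 5 motifs were searched on both strands, and no matches overlapped in the windows shown. A match describes the letters of the window only.

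Across the treated and vehicle tumours the B cell genes were unevenly spread, and the same 4 tumours held the highest levels of Ms4a1, Cd79b, Cd22, Spib and Pax5. These were P31T2 and P36T3 of the combination group and P29T1 and P29T2, from the same rat of the anti-PD-L1 group. Ms4a1 was at 418 CPM in P31T2 and 105.2 CPM in P36T3, and at 205 CPM in P29T1 and 143 CPM in P29T2. In the 12 vehicle tumours Ms4a1 lay between 0.261 and 7.34 CPM. Over the 35 tumours the highest Ms4a1 level was 106.5 times the median, the highest Cd79b level 83.5 times, the highest Cd22 level 11.8 times and the highest Spib level 22.4 times the median. For Cd38 that ratio was 4.56, for Sdc1 5.05 and for Xbp1 1.75. P31T2 was the highest for Cd38 as well (299.9 CPM), but the highest Sdc1 was in P33T1 (combination, 360 CPM) and the highest Xbp1 in P5T3 (vehicle, 380 CPM).

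Over all 31 rats, the 4 genes whose levels ranked most like those of Ms4a1 were Cd79b, Fcer2, Lax1 and Cr2, out of 7799 genes with a mean of at least 10 CPM. Spearman's rho was 0.862 for Cd79b and 0.837 for Fcer2, the low-affinity IgE receptor CD23. It was 0.821 for Lax1, an adaptor of lymphocyte receptors, and 0.82 for Cr2, the complement receptor CD21. Among the other genes of the set, rho with Ms4a1 was 0.714 for Pax5, 0.698 for Spib and 0.561 for Cd38. It was 0.265 for Cd22, -0.106 for Sdc1 and 0.002 for Xbp1. Between Sdc1 and Xbp1 it was 0.725. These coefficients describe rats of all 5 groups, which share library preparation and differ in depth.

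The central comparison was between rats on each drug and rats on vehicle. Ms4a1 and Cd79b had their highest medians in combination and TGFBR1 inhibitor rats and their lowest in vehicle rats. Ms4a1 had 0.327, 13.1 and 105.2 CPM (lowest, median and highest of 6 rats) in combination rats. The 5 TGFBR1 inhibitor rats had 5.79, 7.49, 11.7, 23.7 and 28.1 CPM, and the 5 anti-PD-L1 rats 2.15, 3.41, 5.31, 7.10 and 175 CPM. The vehicle rats had 1.24, 2.80 and 7.34 CPM (lowest, median and highest of 8 rats). Levels above the highest vehicle rat were seen in 3 of 6 combination rats, 4 of 5 TGFBR1 inhibitor rats and 1 of 5 anti-PD-L1 rats, so every treated group overlapped the vehicle group.

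TGFBR1 inhibitor rats were all above the vehicle median, at 5.79 to 28.1 CPM, with a mean of 15.4 ± 10.0 CPM (SD, n = 5). Anti-PD-L1 rats had a mean of 38.7 ± 76.4 CPM (SD, n = 5) that 1 rat, P29, set. Of the combination rats 3 were at 22.6 to 105.2 CPM and 3 were at 0.327 to 3.63 CPM. The mean of vehicle rats was 3.17 ± 1.93 CPM (SD, n = 8). Untreated tumours, outside the treatment cohort, had 0, 3.98 and 132 CPM (lowest, median and highest of 7 rats), so that levels above all vehicle rats also occurred without any drug, in 2 of 7 rats.

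Cd79b was likewise lowest in vehicle rats. Combination rats had 5.23, 29.3 and 269.6 CPM (lowest, median and highest). TGFBR1 inhibitor rats had 11.5, 22.7, 36.9, 42.9 and 50.5 CPM. Anti-PD-L1 rats had 11.2, 12.98, 15.7, 18.8 and 383 CPM. Vehicle rats had 1.20, 6.81 and 14.02 CPM (lowest, median and highest). All 5 TGFBR1 inhibitor and all 5 anti-PD-L1 rats and 5 of 6 combination rats were above the vehicle median, and 4, 3 and 3 of them above the highest vehicle rat.

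**Figure D2:**
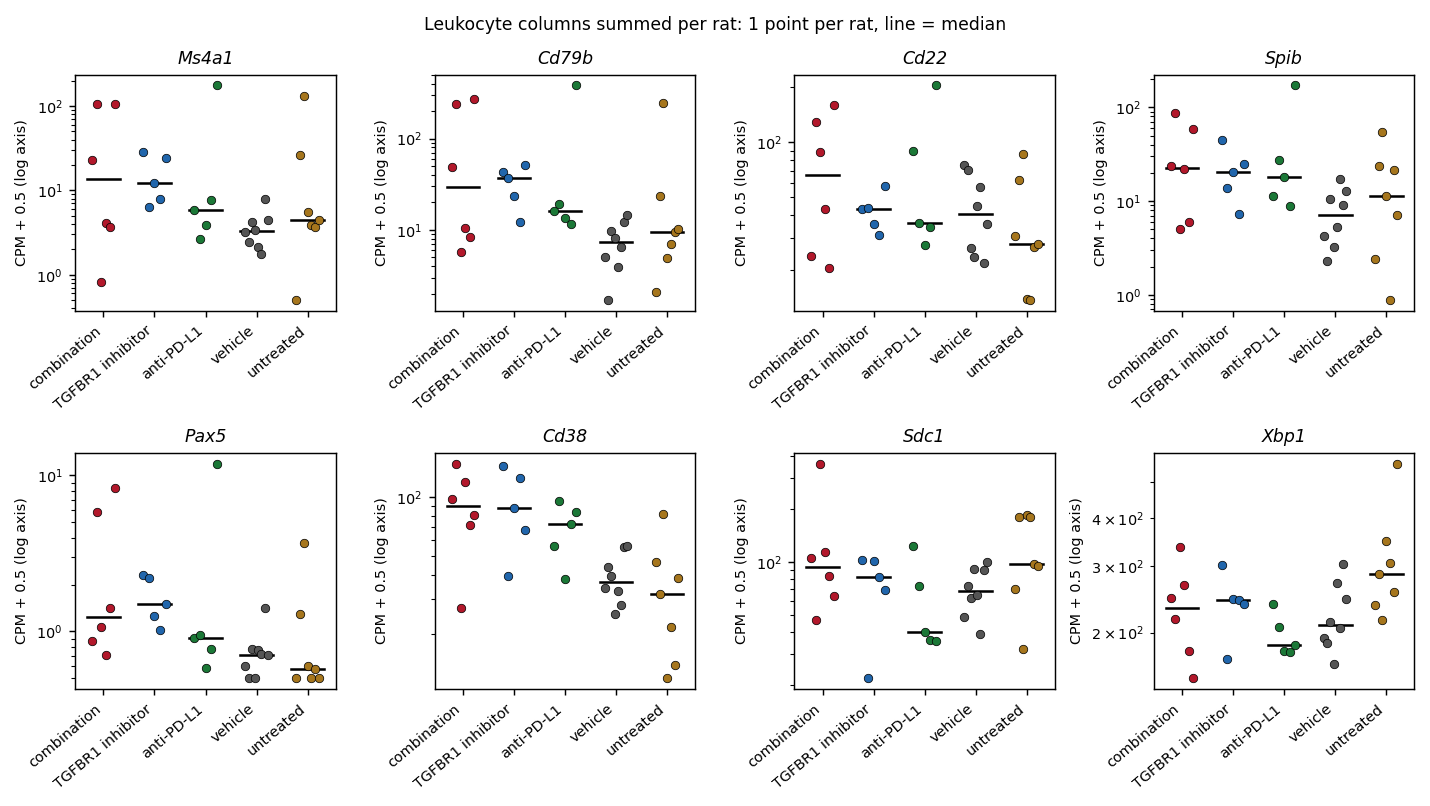
Level of each gene (CPM + 0.5, log axis) in the summed leukocyte columns of each rat, by group, with the group median as a line. For Ms4a1 and Cd79b the treated rats reach 175 and 383 CPM (rat P29, anti-PD-L1) against at most 7.34 and 14.02 CPM in vehicle rats, with overlap in every group, while Xbp1 lies at 151 to 336 CPM in treated and 164 to 302 CPM in vehicle rats.

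No gene of the set passed the threshold against vehicle in edgeR's quasi-likelihood test, at a Benjamini-Hochberg adjusted p of 0.05, and neither did any other of the 11932 genes tested (0% called in each of the 3 comparisons). Against vehicle, the combination gave a log2 fold change of 3.47 for Ms4a1 (SE 1.01, adjusted p = 0.149) and 3.56 for Cd79b (SE 0.92, adjusted p = 0.131). Anti-PD-L1 gave 3.45 for Ms4a1 (SE 1.03, adjusted p = 0.288) and 3.44 for Cd79b (SE 0.93, adjusted p = 0.288). The TGFBR1 inhibitor gave 2.14 for Ms4a1 (SE 1.01, adjusted p = 0.284) and 2.06 for Cd79b (SE 0.91, adjusted p = 0.258). At an unadjusted p under 0.05 there were 6 of the 8 genes for the combination, where 15.7% of all genes met that mark, 3 of 8 for the TGFBR1 inhibitor (17.1% of all genes) and 5 of 8 for anti-PD-L1 (11.8% of all genes).

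With DESeq2 on the same sums, 335 genes (2.81% of those tested) passed for the combination, and 4 of them were of the set: Cd79b (adjusted p = 0.00633), Ms4a1 (0.0167), Cd38 (0.0235) and Pax5 (0.0425). For anti-PD-L1 DESeq2 called 153 genes (1.28%), among them Cd79b (0.0244), Spib (0.0351) and Ms4a1 (0.0444). For the TGFBR1 inhibitor it called 414 genes (3.47%), among them Cd38 (0.022). With batch as a covariate, edgeR called 176 genes (1.49%) for anti-PD-L1, among them Ms4a1, Cd79b and Spib. In that fit a rat with tumours in both batches entered once per batch, rat P29 among them, and these entries counted as independent. With each column taken as a library, which counts tumours of a rat as independent, 986 genes (8.38%) passed for the combination, 5 of them of the set, and 337 genes (2.86%) for anti-PD-L1, 4 of them of the set. The calls on B cell genes thus depend on the tool and on the unit counted.

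Single rats moved these values. Without rat P29 the anti-PD-L1 log2 fold change was 0.46 for Ms4a1, 0.94 for Cd79b, 0.96 for Spib and 0.19 for Pax5. Without the combination rat P31 the combination value was 2.97 for Ms4a1 and 3.12 for Cd79b, without rat P36 2.85 and 2.88 (and 2.32 for Pax5), and without tumour P31T2 alone, left out after its values were seen, 2.86 and 2.97. Over all 38 alternatives run, the combination value ranged from 1.55 to 4.30 for Ms4a1 and from 1.34 to 4.24 for Cd79b. For Spib that range was 0.61 to 2.45. In batch 2 alone Ms4a1 had log2 fold changes of 3.68 for the combination, 2.44 for the TGFBR1 inhibitor and 3.24 for anti-PD-L1, and in batch 3 alone 3.54, 1.86 and 4.21 in the same order. Rat P29 had a tumour in each batch, at 143 CPM of Ms4a1 in batch 2 and 205 CPM in batch 3. Both anti-PD-L1 values thus include that rat.

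Cd22 behaved less uniformly. Combination rats had 19.97, 65.3 and 159 CPM (lowest, median and highest). TGFBR1 inhibitor rats had 30.7, 35.2, 42.5, 42.9 and 57.04 CPM, and anti-PD-L1 rats 26.96, 33.7, 35.7, 89.1 and 205 CPM. Vehicle rats had 21.3, 39.8 and 74.5 CPM (lowest, median and highest). The TGFBR1 inhibitor rats lay inside the vehicle range, and 3 combination and 2 anti-PD-L1 rats lay above it. The log2 fold change was 0.77 for the combination (SE 0.47, adjusted p = 0.426) and 0.75 for anti-PD-L1 (SE 0.49, adjusted p = 0.532). It was 0.44 for the combination without rat P36 and 0.08 for anti-PD-L1 without rat P29.

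Of the transcription factors, Spib had 4.50, 22.3 and 86.995 CPM in combination rats (lowest, median and highest). TGFBR1 inhibitor rats had 6.78, 13.4, 19.8, 24.2 and 44.5 CPM and anti-PD-L1 rats 8.43, 10.9, 17.6, 26.8 and 172 CPM. Vehicle rats had 1.80, 6.69 and 16.9 CPM (lowest, median and highest). Spib was above the highest vehicle rat in 4 of 6 combination, 3 of 5 TGFBR1 inhibitor and 3 of 5 anti-PD-L1 rats. Its log2 fold change was 1.93 for the combination (SE 0.68, adjusted p = 0.191), 1.36 for the TGFBR1 inhibitor (SE 0.71, adjusted p = 0.329) and 2.46 for anti-PD-L1 (SE 0.71, adjusted p = 0.288).

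Pax5 was at the edge of detection. Combination rats had 0.202, 0.742 and 7.84 CPM (lowest, median and highest), the TGFBR1 inhibitor rats 0.529, 0.754, 0.993, 1.71 and 1.79 CPM and the anti-PD-L1 rats 0.0832, 0.268, 0.403, 0.443 and 11.4 CPM. Vehicle rats had 0, 0.209 and 0.907 CPM (lowest, median and highest). All 5 TGFBR1 inhibitor rats were above the vehicle median, and 3 combination, 3 TGFBR1 inhibitor rats and 1 anti-PD-L1 rat were above the highest vehicle rat. The log2 fold changes were 3.12 for the combination (SE 1.01, adjusted p = 0.167), 2.03 for the TGFBR1 inhibitor (SE 1.03, adjusted p = 0.314) and 3.11 for anti-PD-L1 (SE 1.04, adjusted p = 0.292), on these few counts.

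Cd38 was higher across the treated rats rather than in a few of them. Combination rats had 26.5, 89.1 and 148 CPM (lowest, median and highest). TGFBR1 inhibitor rats had 38.8, 67.4, 87.8, 124 and 144 CPM, and anti-PD-L1 rats 37.5, 55.4, 72.7, 83.3 and 94.5 CPM. Vehicle rats had 24.9, 36.4 and 56.002 CPM (lowest, median and highest). Above the highest vehicle rat were 5 of 6 combination, 4 of 5 TGFBR1 inhibitor and 3 of 5 anti-PD-L1 rats. The means were 90.5 ± 41.7 CPM (SD, n = 6), 92.3 ± 42.3 CPM (SD, n = 5) and 68.7 ± 22.6 CPM (SD, n = 5) in these groups and 39.03 ± 11.7 CPM (SD, n = 8) in vehicle rats.

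The log2 fold change of Cd38 was 1.08 for the combination (SE 0.28, adjusted p = 0.131), 1.15 for the TGFBR1 inhibitor (SE 0.29, adjusted p = 0.136) and 0.73 for anti-PD-L1 (SE 0.29, adjusted p = 0.365). Without vehicle rat P7 the TGFBR1 inhibitor value was 1.22 and passed (adjusted p = 0.0427, with 297 genes or 2.5% called). The batches differed: in batch 2 alone the log2 fold changes were 1.87 for the combination, 1.63 for the TGFBR1 inhibitor and 1.51 for anti-PD-L1, and in batch 3 alone 0.57, 0.39 and 0.04.

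Sdc1 and Xbp1 did not follow the B cell genes. For Sdc1, combination rats had 46.5, 93.5 and 360 CPM (lowest, median and highest). TGFBR1 inhibitor rats had 21.3, 68.3, 81.05, 100.3 and 101.8 CPM and anti-PD-L1 rats 34.9, 35.5, 39.5, 72.2 and 122 CPM. Vehicle rats had 38.5, 68.02 and 99.7 CPM (lowest, median and highest). The groups overlapped throughout. The log2 fold change for the combination was 0.94 (SE 0.45, adjusted p = 0.309), and without rat P33, whose only leukocyte column had 716 CPM of Cd68, it was 0.05.

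Xbp1 was the most even gene of the set. Combination rats had 151, 231 and 336 CPM (lowest, median and highest). TGFBR1 inhibitor rats had 169.8, 238, 243, 244 and 301 CPM and anti-PD-L1 rats 177, 178, 185, 206 and 237 CPM. Vehicle rats had 164, 208 and 302 CPM (lowest, median and highest). The treated rats lay within the vehicle range, except combination rat P33 above it and combination rat P36 below it. For anti-PD-L1 the log2 fold change was -0.27 (SE 0.23, adjusted p = 0.641), and for the other treatments it was smaller than its SE.

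**Figure D3:**
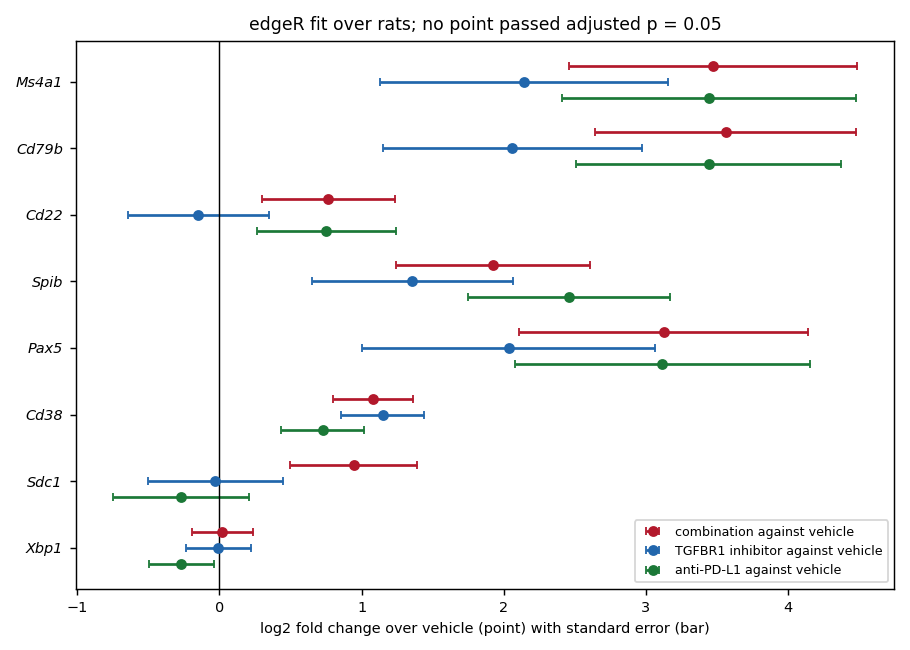
Log2 fold change over vehicle of the 8 genes for the combination, the TGFBR1 inhibitor and anti-PD-L1 (points) with the standard error of the edgeR fit over rats (bars). Ms4a1, Cd79b and Pax5 lie furthest to the right, between 2.03 and 3.56, Cd38 between 0.73 and 1.15 with the shorter bars, and Xbp1 next to 0, and no point passed the adjusted threshold.

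Wider lists of the lineage, chosen with earlier results of these data known, gave no call either in the main edgeR fit. Of 26 further genes of B cell surface and signalling 22 were in the table and 21 were tested. For the combination against vehicle 9 of the 21 were above 0 (median log2 fold change -0.06), against 50.6% of all genes (median 0.01), and 5 had an unadjusted p under 0.05. For the TGFBR1 inhibitor 10 of 21 (median -0.12) and for anti-PD-L1 13 of 21 (median 0.22) were above 0. Many genes of this list are also used by other leukocytes. Of the 10 B cell transcription factors tested, 8 were above 0 for the combination (median 0.45), 7 for the TGFBR1 inhibitor (median 0.75) and 9 for anti-PD-L1 (median 0.76). At an unadjusted p under 0.05 there were 5, 4 and 5 of them, against 15.7%, 17.1% and 11.8% of all genes. These include Spi1, the gene of PU.1, which myeloid cells also use and which was below 0 in each comparison, at -1.06, -1.58 and -1.28 in the same order. Of 12 plasma cell genes tested, 6, 7 and 8 were above 0 in the same order, with medians of 0.01, 0.24 and 0.42. Of 13 genes of the unfolded protein response, which Xbp1 drives in part, 6, 8 and 10 were above 0, with medians of -0.01, 0.11 and 0.12.

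Of the germinal centre genes, which mark the sites where B cells mature, 4 were tested, and 2, 1 and 3 of them were above 0 in the same order. Genes of B cell survival and attraction, the ligands BAFF and APRIL and the chemokine CXCL13 among them, gave 9 tested. Of these 3, 1 and 2 were above 0, with medians of -1.63 for the combination, -1.34 for the TGFBR1 inhibitor and -0.34 for anti-PD-L1, and none passed.

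Values of other cell types stand beside these, and no gene of their lists passed in the main edgeR fit. All 10 macrophage genes tested were below 0 in each of the 3 comparisons, with median log2 fold changes of -2.23 for the combination, -2.37 for the TGFBR1 inhibitor and -2.20 for anti-PD-L1. Their summed level was 270.2 to 2945 CPM in combination, 253 to 1461 CPM in TGFBR1 inhibitor and 62.3 to 1412 CPM in anti-PD-L1 rats, and 412 to 10013 CPM in vehicle rats. All 5 neutrophil genes tested were below 0 as well, with medians of -3.04, -1.84 and -1.24 in the same order, and so were all 4 fibroblast genes for the combination (median -3.65) and for anti-PD-L1 (median -1.15) and 3 of 4 for the TGFBR1 inhibitor (median -2.15). Of 6 natural killer cell genes 3, 6 and 5 were above 0, with medians of 0.03, 1.16 and 0.43. The 12 T cell genes summed to 3074 to 8259.6 CPM, 5033 to 6816 CPM and 4456 to 6388 CPM in the treated groups, in that order, and to 1678 to 6031 CPM in vehicle rats. Of these genes 12, 11 and 10 were above 0 in the same order, against 50.6%, 50.3% and 48.1% of all genes. Their median log2 fold changes were 0.37, 0.30 and 0.27. Ptprc, which selected the columns, had medians of 1280.5 CPM in combination, 1074 CPM in TGFBR1 inhibitor, 1169.7 CPM in anti-PD-L1 and 911 CPM in vehicle rats. Over the 31 rats, the rho of Ms4a1 was -0.558 with the summed macrophage genes and 0.362 with the T cell genes, and that of Cd38 -0.603 and 0.645. Of 8 plasmacytoid dendritic cell genes 6 were in the table, Siglech and Clec4c not among them, and their sum had a rho of 0.477 with Spib. For the summed lists of B cell surface genes and B cell transcription factors it was 0.438 and 0.46 with Spib. For the single gene Cd79b it was 0.848. The part of these cell types in the values of the B cell genes was not tested.

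The combination was next set against each drug alone. Against anti-PD-L1, 0 of 11932 genes passed in edgeR and 0 in DESeq2, and at an unadjusted p under 0.05 there was 1 gene of the set, Sdc1 (112 genes or 0.939% of all). The log2 fold change of Sdc1 was 1.21 (SE 0.52, adjusted p = 1.00) and, without combination rat P33, 0.33. Those of Cd38 and Xbp1 were 0.35 (SE 0.32) and 0.29 (SE 0.24; 0.01 for Xbp1 without rat P33), and those of Ms4a1, Cd79b, Cd22, Spib and Pax5 were smaller than their SE. Against the TGFBR1 inhibitor, 0 genes passed in edgeR and 0 in DESeq2, and no gene of the set had an unadjusted p under 0.05 (163 genes or 1.37% of all). The log2 fold changes were 1.33 for Ms4a1 (SE 1.10), 1.501 for Cd79b (SE 1.00), 0.91 for Cd22 (SE 0.54) and 0.97 for Sdc1 (SE 0.51), each with an adjusted p of 1.00. Without combination rat P36 they were 0.71 for Ms4a1, 0.81 for Cd79b and 0.59 for Cd22, without rat P31 0.85, 1.07 and 0.78 in the same order, and without rat P33 0.11 for Sdc1. In growing tumours alone, a restriction added after the data were seen, the values against the TGFBR1 inhibitor were -1.34 for Ms4a1 and -1.05 for Cd79b. These comparisons share the combination rats.

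Tumours of the same rat could differ widely in the B cell genes. Leukocytes of more than 1 tumour were available from 10 rats. The tumours of rats P31, P5 and C10 were each in 1 batch, and those of the other 7 rats were split between batches 2 and 3, so that for these 7 tumour and batch cannot be told apart. The highest and lowest tumour of a rat differed by a median factor of 2.51 for Ms4a1 and 2.86 for Cd79b, over the 9 rats with counts in both. For Cd38 the median factor was 2.26, for Sdc1 1.31 and for Xbp1 1.29, over 10 rats. Rat P31, on the combination, had 418 CPM of Ms4a1 in tumour P31T2, 19.3 CPM in P31T3 and 9.41 CPM in P31T1, a factor of 44.4 between the extremes. Both tumours of rat P29 were high, at 205 and 143 CPM. In rat P22, on the TGFBR1 inhibitor, tumours P22T2 and P22T1 had 60.4 and 7.08 CPM, and in rat P19 tumours P19T2 and P19T1 had 17.4 and 2.67 CPM. Among vehicle rats the lowest tumour, P6T2, had 0.261 CPM beside 2.83 CPM in P6T1. All 3 tumours of the untreated rat C10 had 0 counts of Ms4a1. In rats P31 and P22 a single tumour was high, and in rat P29 both were.

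**Figure D4:**
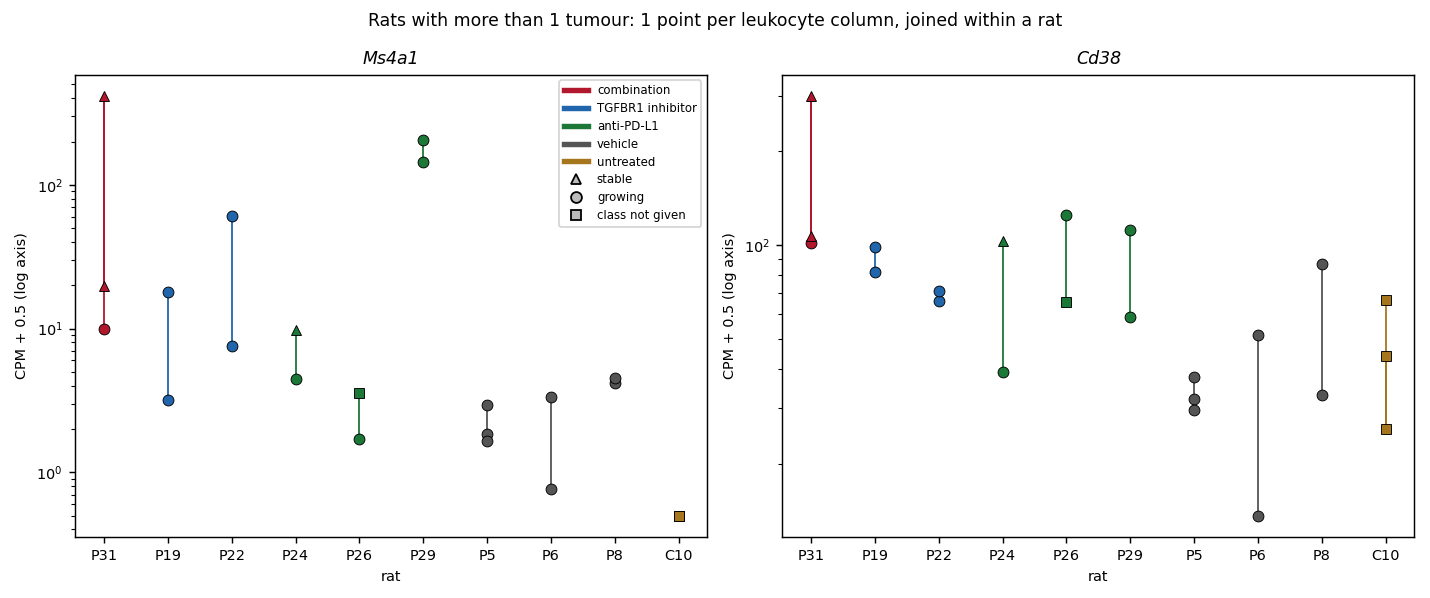
Ms4a1 (left) and Cd38 (right) in the leukocyte columns of the 10 rats with more than 1 tumour (CPM + 0.5, log axis), joined within a rat and marked by growth class and treatment. Ms4a1 of rat P31 runs from 9.41 to 418 CPM, both tumours of rat P29 are high, and Cd38 differs within a rat by a factor of at most 3.89.

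The deposited sample table also classes tumours as growing or stable, by a rule not given in the sources used here. Of the leukocyte columns of treated rats 7 were from stable and 15 from growing tumours, and 1 had no class. Of the vehicle tumours 1 was stable and 11 were growing. Ms4a1 in stable tumours of the combination group was 19.3, 105.2 and 418 CPM, against 0.327, 3.19, 3.63, 9.41 and 22.6 CPM in growing ones. The stable tumours were the highest but overlapped the growing ones at their low end. With the TGFBR1 inhibitor the highest levels were in growing tumours, at 5.79 and 7.49 CPM in stable and 2.67, 7.08, 17.4, 28.1 and 60.4 CPM in growing tumours. With anti-PD-L1 the stable tumours, at 7.10 and 9.20 CPM, lay between growing ones at 1.22, 3.41 and 3.92 CPM and at 143 and 205 CPM. The stable vehicle tumour, P7T1, had the highest vehicle level, 7.34 CPM, against 0.261, 2.70 and 4.06 CPM (lowest, median and highest) in the 11 growing ones.

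**Figure D5:**
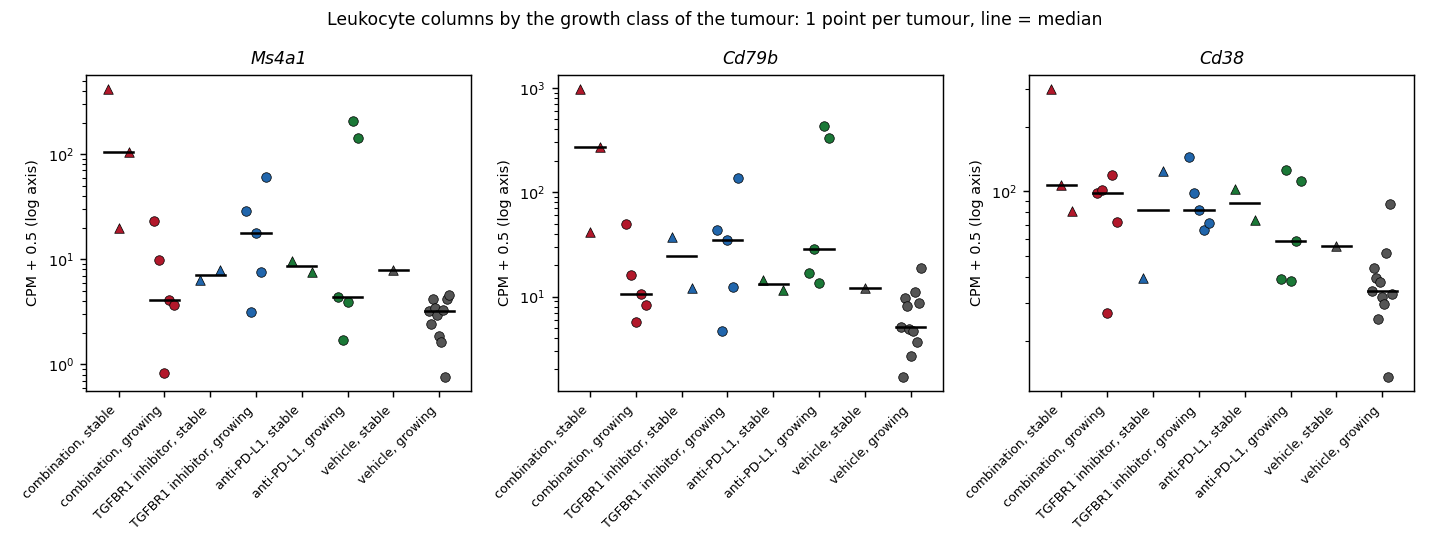
Ms4a1, Cd79b and Cd38 (CPM + 0.5, log axis) in leukocytes of stable (triangles) and growing (circles) tumours by treatment, 1 point per tumour with the median as a line. Stable tumours hold the highest Ms4a1 levels with the combination (up to 418 CPM), and growing tumours with anti-PD-L1 (up to 205 CPM) and the TGFBR1 inhibitor (up to 60.4 CPM).

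Over the treated rats, with treatment in the model, none of the 11335 genes tested differed between stable and growing tumours in edgeR (0% called, 582 genes or 5.13% at an unadjusted p under 0.05), and DESeq2 called 5 genes, none of them of the set. None of the 8 genes had an unadjusted p under 0.05. Here a library was the sum of a rat and class, so rats P24 and P31, with tumours of both classes, gave a library to each. The fit treated these as independent. The log2 fold change of stable over growing was 1.35 for Cd79b (SE 1.26, adjusted p = 0.925), 1.30 for Pax5 (SE 1.08, adjusted p = 0.92), -0.72 for Sdc1 (SE 0.51, adjusted p = 0.905) and -0.22 for Xbp1 (SE 0.21, adjusted p = 0.925), and for the other genes it was smaller than its SE. In batch 3 alone it was 2.59 for Cd79b and in batch 2 alone -1.03. In anti-PD-L1 tumours alone it was -3.0 for Cd79b. Without rat P31 it was 0.57 for Cd79b and 0.82 for Pax5.

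Whether the difference between stable and growing tumours itself differed between treatments was tested as an interaction, 3 contrasts for each of the 8 genes. None of the 24 passed over all 12966 genes tested. The largest was that of Cd79b, where stable minus growing was 7.03 higher on the log2 scale with the combination than with anti-PD-L1 (SE 1.88, adjusted p = 0.973). Against the TGFBR1 inhibitor it was 4.56 higher with the combination (SE 1.77, adjusted p = 0.597). With 2 stable tumours in each of the single-drug groups, these estimates rest on few tumours. The stable combination tumours P31T2 and P31T3 were of the same rat, as were the growing anti-PD-L1 tumours P29T1 and P29T2.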

How the data were processed

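RNA of sorted tumour fractions was amplified with a SMARTer low-input kit from under 10 ng, per the labels' protocols. The authors deposited gene counts as 1 table of whole numbers; the submitters' processing notes name STAR, FastQC and rn6, without versions, and nothing used here states the counting tool, annotation or use of strand. Batch and growth class are other values, deposited in the authors' sample table. Column names give rat and tumour, not fraction, so columns were placed by treatment and leukocyte columns taken at Ptprc of at least 300 CPM. Of 108 columns 1 was not used. Columns were summed per rat (for growth, per rat and class) and fitted with edgeR 4.0.16 in R 4.3.3 (TMM, filterByExpr, robust quasi-likelihood F test, Benjamini-Hochberg over all genes tested). SEs were derived from the F statistic. The fit was tested on simulated data. No 2 leukocyte columns were identical. All 8 genes are named; of the wider lists only genes past the threshold were to be named, and for Ms4a1 the 5 most alike, the last of which is not reported here. The genes and lists were chosen with earlier results of these data known. CPM use column totals, counts are not independent molecules, and floors cover counting error only. Alternatives were RLE scaling, other filters, DESeq2 1.42.0, other units, batch, Ptprc thresholds of 100 and 600 CPM, columns of 1 labelled sample, and leaving out each rat.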

Additional observations from a re-analysis of the deposited data

Results flagged for a closer look

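Among 40 sets of rat levels (8 genes in 5 groups) compared on a log2 scale, 5 held a rat far from the others by Dixon's test, where chance alone flags about 1 in 20. Rat P29 was apart from the other 4 anti-PD-L1 rats for 3 B cell genes: Ms4a1 was 175.3 CPM (next rat 7.10 CPM), Cd79b 383.2 CPM (next 18.8 CPM) and Pax5 11.42 CPM (next 0.443 CPM). Both of its tumours were high, and the anti-PD-L1 values without it stand beside the results. In vehicle rats, Pax5 was highest in rat P7, at 0.907 CPM against 0.274 CPM in the next of 8 rats; its tumour was the only vehicle tumour classed as stable. In TGFBR1 inhibitor rats, Sdc1 was lowest in rat P17, at 21.27 CPM against 68.3 CPM in the next of 5 rats. The causes were not tested.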

How the results depend on the processing

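In the main edgeR fits, on sums per rat (for growth, per rat and class), no gene passed in any comparison. With DESeq2 or other settings of edgeR the counts moved as follows. Genes called for the combination against vehicle were 335 with DESeq2 (4 of the set), 986 with each column as a library (5 of the set), 16 with columns of a single labelled sample and 247 in growing tumours alone, and ranged from 0 to 42 over the rats left out in turn (3 without combination rat P33, 42 without vehicle rat P7). For the TGFBR1 inhibitor against vehicle they were 414 with DESeq2 (1 of the set) and 30 with each column as a library, and ranged from 0 to 297 with a rat left out, with 0 to 1 of the set (297 and 1 without vehicle rat P7). For anti-PD-L1 against vehicle they were 153 with DESeq2 (3 of the set), 176 with batch as a covariate (3 of the set), 337 with each column as a library (4 of the set) and 1 in growing tumours alone. The fit with batch as a covariate took a rat with tumours in both batches once per batch. For stable against growing tumours DESeq2 called 5. RLE scaling, the other filters, the groups compared alone and both Ptprc thresholds left all counts at 0.

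Of 30 log2 fold changes of at least 1 SE, 21 values under 5 of the settings took the other sign. In growing tumours alone, the combination against the TGFBR1 inhibitor gave -1.34 for Ms4a1, -1.05 for Cd79b and -0.03 for Cd22, and against vehicle -0.23 for Cd22. With columns of a single labelled sample it gave -0.85 for Ms4a1, -0.59 for Cd79b, -0.89 for Cd22 and -0.28 for Sdc1 against the TGFBR1 inhibitor and -1.87 for Cd22 against vehicle. In batch 2 alone Sdc1 was -0.20 against the TGFBR1 inhibitor and -0.17 against vehicle. With Ptprc of at least 100 CPM, Xbp1 was 0.03 for anti-PD-L1 against vehicle, -0.01 for the combination against anti-PD-L1 and 0.01 for stable against growing. Stable against growing was -3.0 for Cd79b, -2.51 for Pax5, 0.01 for Sdc1 and 0.10 for Xbp1 in anti-PD-L1 tumours alone, and -1.03 for Cd79b, -0.48 for Pax5 and 0.06 for Xbp1 in batch 2 alone. The causes were not tested. No sign changed with a rat left out.

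No paired analysis was possible because the treatment groups share no rat, and replicate numbers only name samples. For stable against growing, with the rat as a replicate block, 0 genes passed and 413 had an unadjusted p under 0.05. Batch 2 alone, growing tumours alone, the rat block and leaving out tumour P31T2 were chosen after seeing the data. Untreated tumours were not compared with mammary gland, which was not analysed here, and columns of a single labelled sample were too few for anti-PD-L1 and for growth. Few stable tumours and, for Pax5, few counts limit what could be detected.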

Other observations

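Mzb1, singled out after its values were seen, is the one plasma cell gene among those of restricted expression that was well above 0 in some leukocyte columns. It exceeded 10 CPM in 6 of 8 stable and 4 of 26 growing tumours of the treatment cohort. Medians were 17.4 CPM (2.12 to 27.9) in stable tumours and 1.51 CPM (0.245 to 32.8) in growing tumours. In edgeR the log2 fold change of stable over growing, in treated rats, was 1.70 (SE 0.76, adjusted p = 0.901), which did not pass. Pou2af1, a coactivator of octamer factors in B cells and chosen in the same way, had 1.58 (SE 0.70, adjusted p = 0.901). Of the 11 plasma cell genes tested for stable over growing, 6 were above 0, with a median log2 fold change of 0.19. The growing tumours P29T1 and P29T2, both above 10 CPM of Mzb1, were of the same rat. The tumour counts do not take batch into account. High Mzb1 did not always go with high Ms4a1: tumour P28T1 (anti-PD-L1, stable) had 26.6 CPM of Mzb1 beside 7.10 CPM of Ms4a1, and tumour P24T3 of the same treatment and class 25.8 CPM beside 9.20 CPM.

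In the untreated cohort, rat C17 had 132 CPM of Ms4a1 and 245 CPM of Cd79b. By sums per rat, in the treatment cohort that Ms4a1 level was exceeded by rat P29 alone (175 CPM) and the Cd79b level by rats P29 and P36 (383 and 269.6 CPM). C17 had 1 leukocyte column, and the single tumour P31T2 was higher than it, with 418 CPM of Ms4a1 and 978 CPM of Cd79b.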
